A study of Homo sapiens with 10 samples.

Results

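The genes described here make and use microRNAs: DROSHA, DGCR8, DICER1, the 4 Argonautes EIF2C1, EIF2C2, EIF2C3 and EIF2C4 (AGO1 to AGO4 in current naming), TNRC6A, TNRC6B and TNRC6C. They were found by gene symbol, and these 10 symbols are among 27992 in the deposited table, with 44 of its 80922 transcript rows. RNA-seq had been carried out on SH-SY5Y, a human neuroblastoma line, stably transfected with FOXP2 cDNA (isoform I) of human (hsaFOXP2), chimpanzee (ptrFOXP2), Rhesus monkey (mmuFOXP2) or marmoset (cjaFOXP2) in pcDNA3, or with empty pcDNA3. Each of the 5 conditions has 2 libraries, replicates A and B, from separate rounds of transfection of 1 cell line, and all of them, pcDNA3 included, were grown under geneticin. The question behind the design is whether human FOXP2 sets other expression levels than the FOXP2 of other primates. Levels are BPKM, an RPKM computed on bases, so they are per length and per library, and each gene is given as the mean over its transcript rows.

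In animal cells, the nuclease DROSHA and its RNA-binding partner DGCR8, together called the Microprocessor, cut hairpins out of long primary transcripts in the nucleus. After export, DICER1 removes the loop, and 1 strand of the remaining duplex is loaded into an Argonaute, which it guides to complementary sites in mRNAs. TNRC6 proteins (GW182 family) bind Argonautes and bring in deadenylases, by which the target mRNA is shortened, decapped and degraded. EIF2C2 is the Argonaute that can cut a fully paired target.

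The table speaks of host transcripts and not of mature microRNAs, which were not measured. Mature sequences, credited to RefSeq (GRCh38.p14), are shown because some rows below are named after the microRNAs or carry them, and because a shared seed (bases 2 to 8, in capitals) means shared target sites. Within DGCR8 itself, on the same strand of chromosome 22, lie the hairpins of miR-3618 and miR-1306, and the Microprocessor is known to cut hairpins in DGCR8 mRNA. The other host transcripts shown are MIRLET7BHG, PANK3, H19, MIR22HG, DLEU2 (miR-15a and miR-16), SMC4 (miR-15b), MCM7 (miR-106b), C9orf3 (miR-23b and miR-27b) and CTDSP2 (miR-26a), and every one of these microRNAs lies within its host's span on GRCh38.p14. The microRNAs of DLEU2 and SMC4 share 1 seed.
hsa-miR-3618: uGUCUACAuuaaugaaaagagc
hsa-miR-1306-5p: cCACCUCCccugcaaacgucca
hsa-miR-1306-3p: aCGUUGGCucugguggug
hsa-let-7b-5p: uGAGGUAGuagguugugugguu
hsa-miR-103a-3p: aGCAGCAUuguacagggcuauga
hsa-miR-675-5p: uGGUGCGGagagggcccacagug
hsa-miR-22-3p: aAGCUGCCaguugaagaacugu
hsa-miR-15a-5p: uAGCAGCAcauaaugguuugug
hsa-miR-16-5p: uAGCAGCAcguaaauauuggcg
hsa-miR-15b-5p: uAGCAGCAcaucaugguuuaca
hsa-miR-106b-5p: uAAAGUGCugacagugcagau
hsa-miR-23b-3p: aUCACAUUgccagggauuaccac
hsa-miR-27b-3p: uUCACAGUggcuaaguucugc
hsa-miR-26a-5p: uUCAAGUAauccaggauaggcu

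Between 20200 and 20794 genes per library had a value above 0, and the rough relative depth of the libraries ranged from 1 to 1.27. FOXP2 had 1.54 and 0.932 BPKM in the hsaFOXP2 libraries and between 2.09 and 30.2 BPKM in the non-human FOXP2 libraries. In pcDNA3 it had 0.0045 BPKM or a listed 0. Both hsaFOXP2 libraries thus had less FOXP2 RNA than any non-human FOXP2 library, so FOXP2 RNA level and cDNA species cannot be told apart between them. For the protein, the study judged FOXP2 amounts about equal between these cells by densitometry of Western blots. Of the noradrenergic neuroblastoma markers, 11 of 14 averaged at least 1 BPKM, as did 6 of 7 mesenchymal, 1 of 4 epithelial and 0 of 4 immune markers. The mesenchymal sum was 140 to 238 BPKM in hsaFOXP2, 125 to 153 BPKM in ptrFOXP2, 125 to 242 BPKM in mmuFOXP2, 232 to 247 BPKM in cjaFOXP2 and 179 to 239 BPKM in pcDNA3 libraries. Its markers did not move together: in cjaFOXP2, LUM had 95.8 and 92.3 BPKM but PRRX1 8.67 and 11.2 BPKM. The noradrenergic sum was 309 to 419 BPKM in hsaFOXP2, 223 to 228 BPKM in ptrFOXP2 and 233 to 288 BPKM in mmuFOXP2. It was 324 to 427 BPKM in cjaFOXP2 and 306 to 326 BPKM in pcDNA3 libraries. The part of these differences in the results below was not tested.

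All 10 genes were detected in every library. Averaged over the 10 libraries, DROSHA had the highest level (12.5 ± 1.74 BPKM, SD, n = 10), followed by TNRC6A (9.60 ± 1.007 BPKM), DGCR8 (8.41 ± 1.02 BPKM) and EIF2C1 (5.53 ± 0.639 BPKM). TNRC6C averaged 3.34 ± 0.476 BPKM, DICER1 3.18 ± 0.240 BPKM, EIF2C2 2.94 ± 0.672 BPKM, EIF2C3 2.13 ± 0.226 BPKM, EIF2C4 2.01 ± 0.314 BPKM and TNRC6B 1.22 ± 0.109 BPKM. In this order, neighbouring genes had ranges that did not overlap only between DGCR8 and EIF2C1, between EIF2C1 and TNRC6C, and between EIF2C4 and TNRC6B. TNRC6C and DICER1 changed places from library to library, TNRC6C being the higher in 5 of 10. The highest library of a gene exceeded its lowest by 1.31-fold (TNRC6B) to 1.99-fold (EIF2C2).

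**Figure D1:**
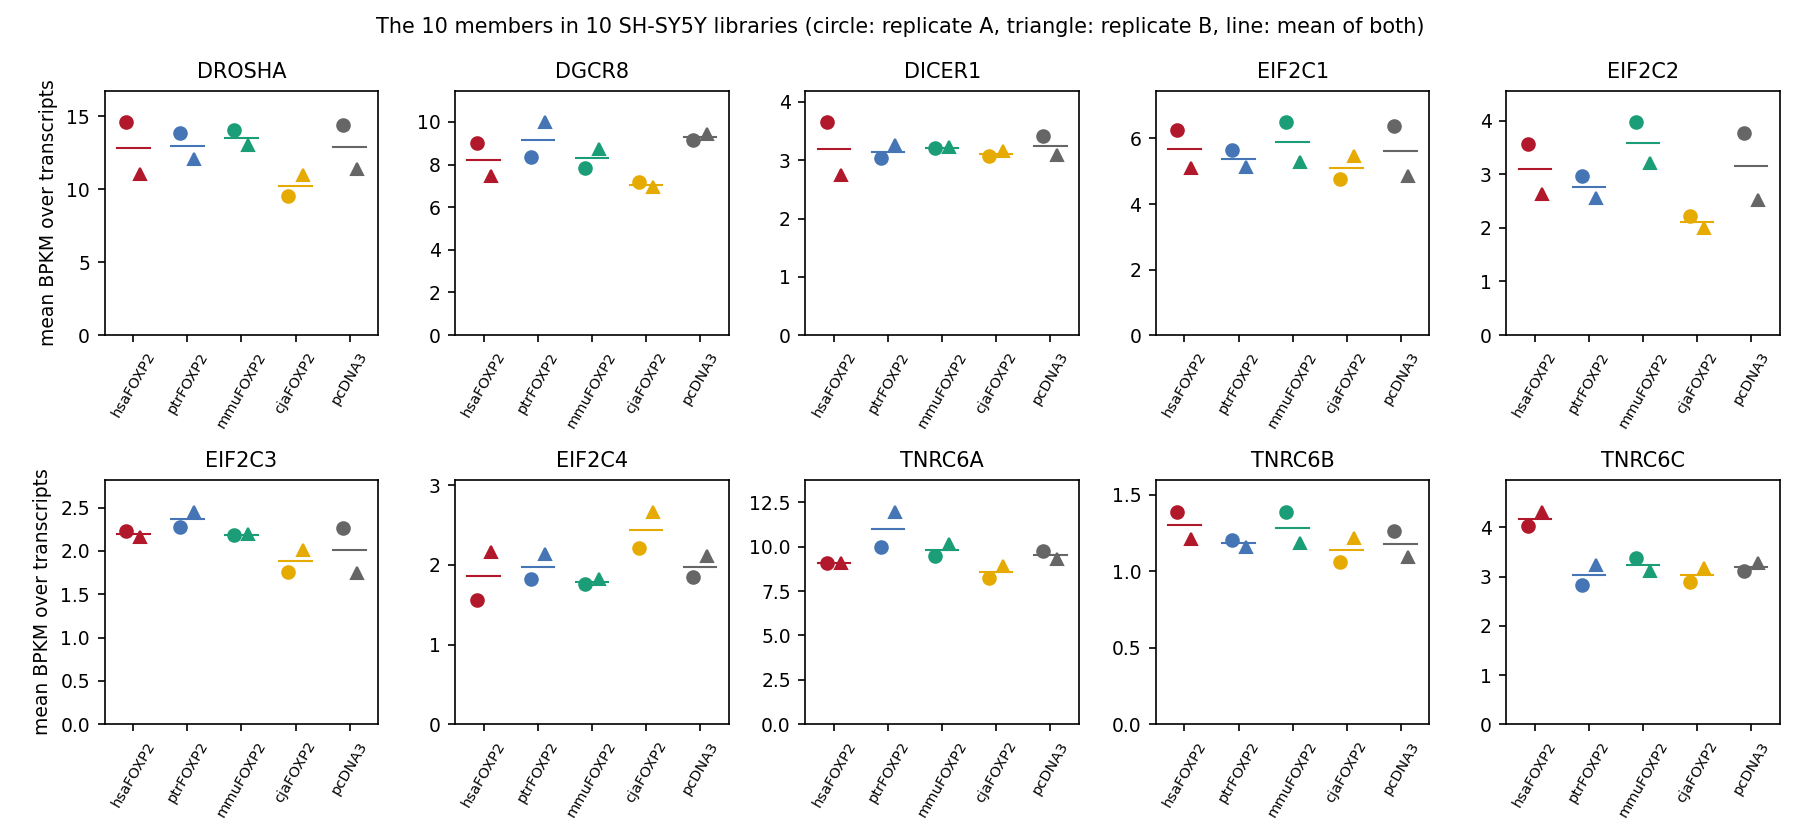
Mean BPKM over transcript rows (y axis, from 0) of the 10 genes in each condition (x axis), with a circle for replicate A, a triangle for replicate B and a line for their mean. The hsaFOXP2 libraries stand apart for TNRC6C (4.03 and 4.32 BPKM), and the cjaFOXP2 libraries are the lowest of all for DROSHA, DGCR8, EIF2C2 and TNRC6A and the highest for EIF2C4.

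The nuclear step comes first. DROSHA had 14.6 and 11.02 BPKM in hsaFOXP2 replicates A and B, 13.81 and 12.04 BPKM in ptrFOXP2, 14.04 and 12.99 BPKM in mmuFOXP2, 9.52 and 10.95 BPKM in cjaFOXP2, and 14.4 and 11.4 BPKM in pcDNA3. Both cjaFOXP2 libraries were below the other 8. DGCR8, its partner, had 8.99 and 7.44 BPKM in hsaFOXP2, 8.34 and 9.98 BPKM in ptrFOXP2, 7.86 and 8.75 BPKM in mmuFOXP2, 7.16 and 6.96 BPKM in cjaFOXP2, and 9.16 and 9.42 BPKM in pcDNA3. Again cjaFOXP2 was lowest, and the pcDNA3 libraries lay within the range of ptrFOXP2. The ratio of DROSHA to DGCR8 ranged from 1.21 in pcDNA3 replicate B to 1.79 in mmuFOXP2 replicate A.

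The rows MIR1306 and MIR3618 cover the hairpins in DGCR8 and averaged 7.57 and 3.53 BPKM. The hairpins lie on the strand of DGCR8, and poly(A) RNA was sequenced, so reads of these rows cannot be told apart from reads of DGCR8 mRNA. MIR1306 ranged from 5.45 BPKM in cjaFOXP2 replicate A to 9.81 BPKM in ptrFOXP2 replicate B. MIR3618 ranged from 2.22 BPKM in hsaFOXP2 replicate B to 4.90 BPKM in hsaFOXP2 replicate A.

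DICER1, the cytoplasmic nuclease, had 3.65 and 2.74 BPKM in hsaFOXP2, 3.03 and 3.25 BPKM in ptrFOXP2, 3.20 and 3.22 BPKM in mmuFOXP2, 3.07 and 3.16 BPKM in cjaFOXP2, and 3.41 and 3.08 BPKM in pcDNA3. The hsaFOXP2 libraries were its highest and its lowest, so the groups overlapped throughout. Its 11 transcript rows averaged 1.67 to 4.45 BPKM, the widest spread among the 10 genes (2.67-fold). DICER1-AS1, on the opposite strand and overlapping DICER1 on GRCh38.p14, ranged from 0.933 BPKM in hsaFOXP2 replicate A to 2.96 BPKM in cjaFOXP2 replicate B. No source used here says whether strand was kept in counting, so reads of DICER1-AS1 cannot be told apart from those of DICER1 where they overlap.

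Of the Argonautes, EIF2C4, EIF2C1 and EIF2C3 lie side by side on 1 strand of chromosome 1 (RefSeq, GRCh38.p14: chr1:35807636-35857890, chr1:35869761-35930532 and chr1:35930718-36072500). EIF2C1 had 6.26 and 5.10 BPKM in hsaFOXP2, 5.64 and 5.12 BPKM in ptrFOXP2, 6.49 and 5.27 BPKM in mmuFOXP2, 4.75 and 5.48 BPKM in cjaFOXP2, and 6.37 and 4.85 BPKM in pcDNA3. EIF2C3 had 2.23 and 2.16 BPKM in hsaFOXP2, 2.27 and 2.45 BPKM in ptrFOXP2, 2.18 and 2.19 BPKM in mmuFOXP2, 1.76 and 2.01 BPKM in cjaFOXP2, and 2.27 and 1.74 BPKM in pcDNA3. The 2 ptrFOXP2 libraries were the highest for EIF2C3, by a narrow margin over pcDNA3 replicate A. EIF2C4 had 1.56 and 2.16 BPKM in hsaFOXP2, 1.82 and 2.13 BPKM in ptrFOXP2, 1.76 and 1.82 BPKM in mmuFOXP2, 2.21 and 2.67 BPKM in cjaFOXP2, and 1.84 and 2.11 BPKM in pcDNA3.

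EIF2C2, on another chromosome, had 3.57 and 2.64 BPKM in hsaFOXP2, 2.97 and 2.55 BPKM in ptrFOXP2, 3.97 and 3.21 BPKM in mmuFOXP2, 2.22 and 2.00 BPKM in cjaFOXP2, and 3.78 and 2.52 BPKM in pcDNA3. It was thus lowest where EIF2C4 was highest. EIF2C1 held 41.8% to 46.0% of the summed Argonaute BPKM in every library. EIF2C2 held from 16.4% in cjaFOXP2 replicate B to 27.6% in mmuFOXP2 replicate A, and EIF2C4 from 11.4% in hsaFOXP2 replicate A to 22.0% in cjaFOXP2 replicate B. In cjaFOXP2 replicate B, EIF2C4 exceeded EIF2C2. These shares, like the order of levels, depend on the transcript rows averaged, each row counting alike. The EIF2C3 rows averaged 2.53 (uc001bzq.3), 2.51 (uc001bzp.3) and 1.35 BPKM (uc001bzn.1), and EIF2C4 has 1 row (2.01 BPKM).

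**Figure D2:**
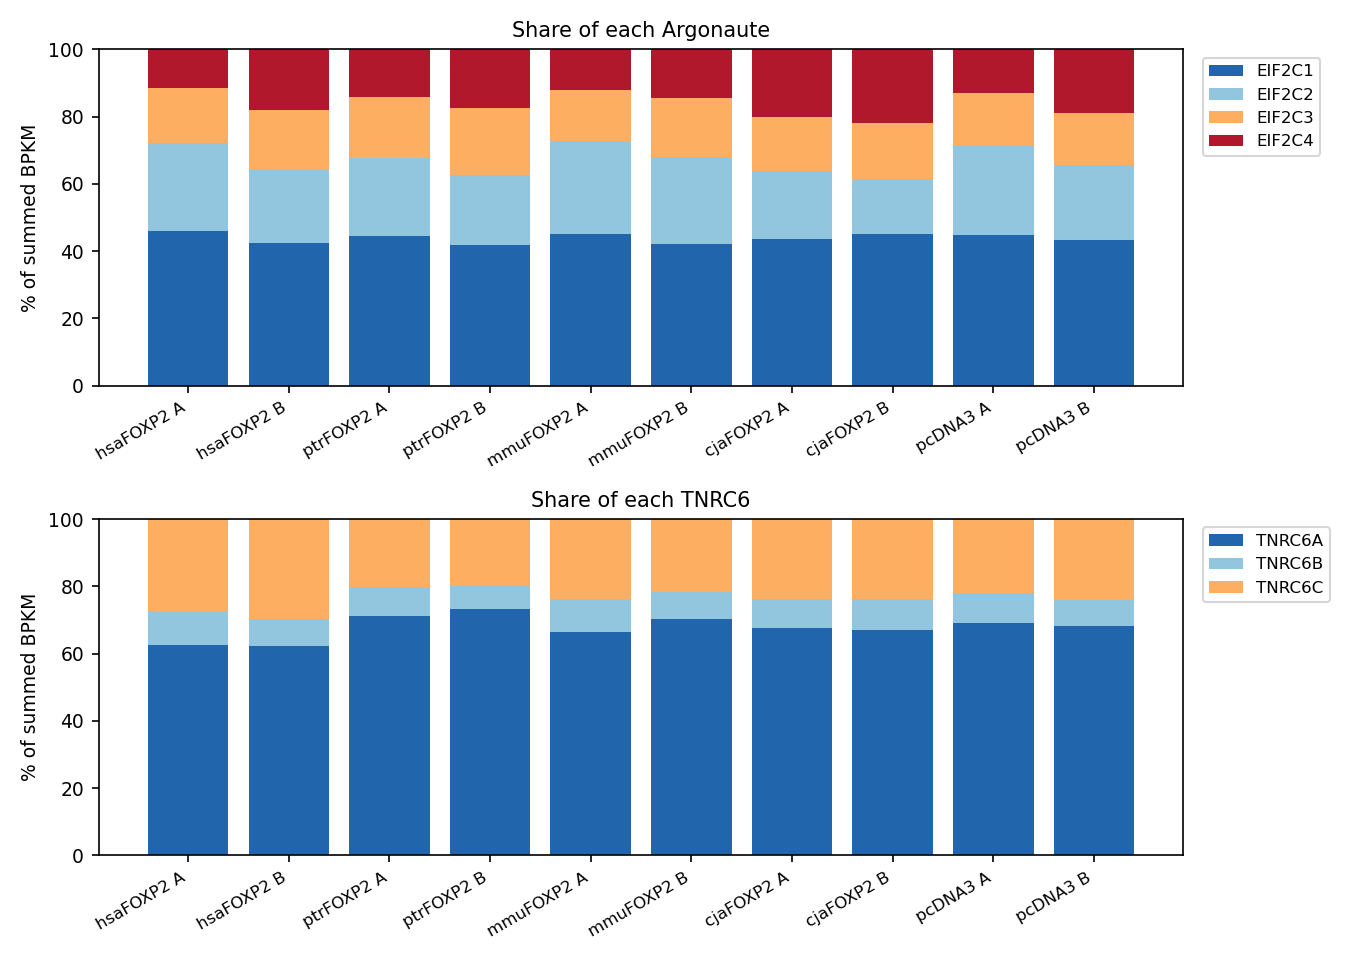
Share of each gene (colour) in the summed BPKM of the 4 Argonautes (upper panel) and of the 3 TNRC6 genes (lower panel), in percent (y axis), for each of the 10 libraries (x axis, no error bars). EIF2C1 stays between 41.8% and 46.0%, whereas EIF2C4 reaches 22.0% in cjaFOXP2 replicate B, and TNRC6C takes 27.8% and 29.6% in hsaFOXP2.

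Among the TNRC6 genes, TNRC6A had 9.10 and 9.08 BPKM in hsaFOXP2, 9.99 and 11.97 BPKM in ptrFOXP2, 9.47 and 10.1 BPKM in mmuFOXP2, 8.22 and 8.89 BPKM in cjaFOXP2, and 9.79 and 9.33 BPKM in pcDNA3. TNRC6B had 1.39 and 1.21 BPKM in hsaFOXP2, 1.21 and 1.16 BPKM in ptrFOXP2, 1.39 and 1.18 BPKM in mmuFOXP2, 1.06 and 1.22 BPKM in cjaFOXP2, and 1.27 and 1.09 BPKM in pcDNA3. TNRC6C had 4.03 and 4.32 BPKM in hsaFOXP2, 2.84 and 3.23 BPKM in ptrFOXP2, 3.38 and 3.11 BPKM in mmuFOXP2, 2.90 and 3.17 BPKM in cjaFOXP2, and 3.11 and 3.27 BPKM in pcDNA3. For TNRC6C, 1 of the 10 genes, both hsaFOXP2 libraries were above the other 8, as for 2.34% of all genes. Its share of the summed TNRC6 BPKM was 27.8% and 29.6% in hsaFOXP2, against 19.7% to 23.9% in the other libraries.

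Between hsaFOXP2 and non-human FOXP2 (2 against 6 libraries), the test of limma on log2(BPKM + 0.1) called 0 of the 10 genes at an adjusted p under 0.05, with 2 of all 21937 genes called (0.00912%). TNRC6C was the only one with an unadjusted p under 0.05, and 4.44% of all genes had one. It averaged 4.18 ± 0.206 BPKM in hsaFOXP2 (SD, n = 2) and 3.11 ± 0.205 BPKM in non-human FOXP2 (SD, n = 6), a log2 fold change of 0.42 (SE 0.11, adjusted p = 0.829 by limma). By exact permutation (two-sided), p was 0.0714, the lowest possible for 2 libraries against 6, and 3.61% of all genes had both hsaFOXP2 libraries above the 6. TNRC6C had been chosen by the study on these same libraries, so its difference is a description and no independent evidence.

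For the other 9 genes, hsaFOXP2 and non-human FOXP2 overlapped, with log2 fold changes from -0.15 (EIF2C4, SE 0.20) to 0.15 (EIF2C2, SE 0.26) and adjusted p = 1.00 each by limma. The median of all 10 was 0.05, with 8 above 0, beside 0.01 for all genes. Some of these signs turned: without the cjaFOXP2 libraries, the log2 fold changes of DROSHA (-0.06), DGCR8 (-0.09), DICER1 (-0.01), EIF2C2 (-0.03) and EIF2C3 (-0.05) were below 0.

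**Figure D3:**
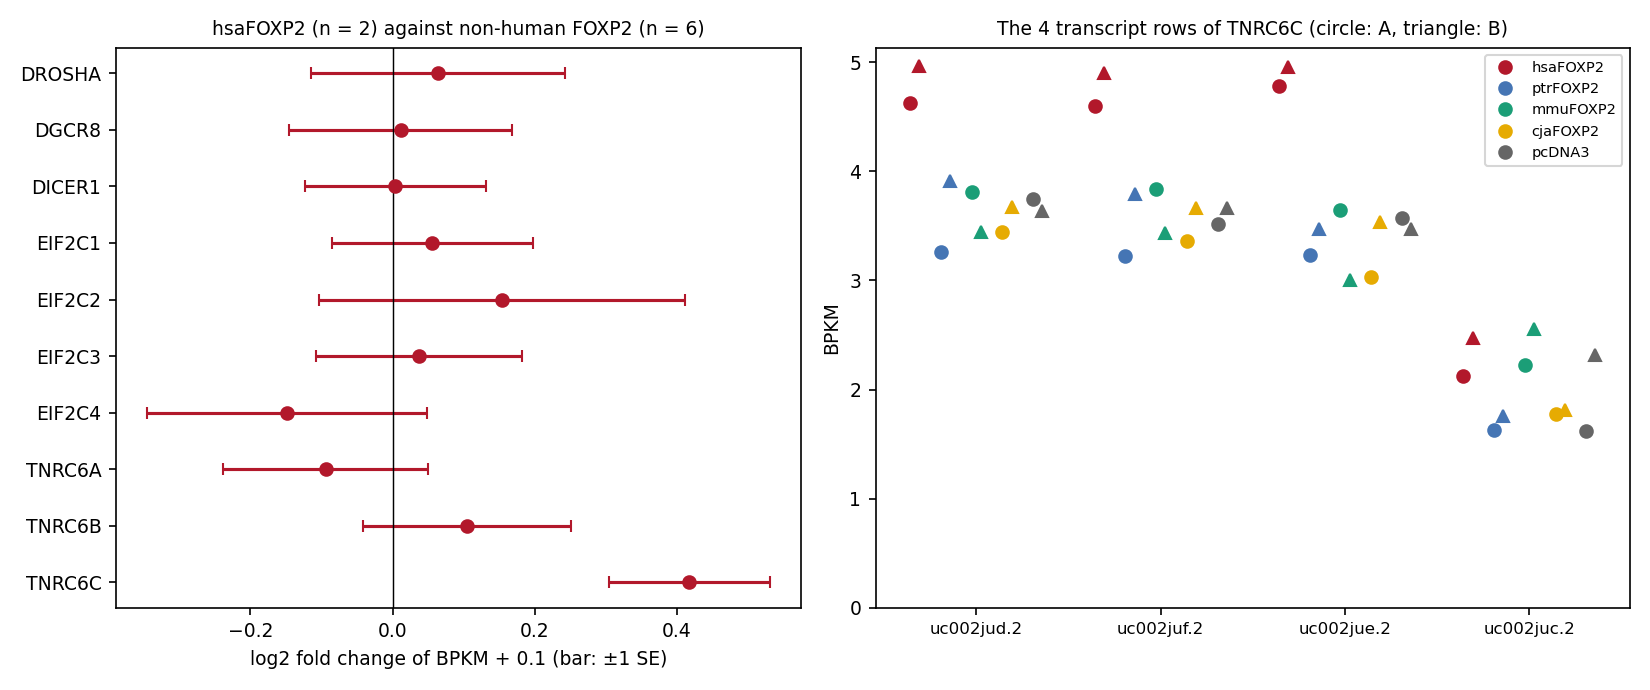
Left, log2 fold change of BPKM + 0.1 (x axis) of hsaFOXP2 against non-human FOXP2 for each gene, with bars of 1 SE from limma. Right, BPKM (y axis, from 0) of the 4 transcript rows of TNRC6C in each condition, with circles for replicate A and triangles for replicate B, where hsaFOXP2 stands above the rest in uc002jud.2, uc002juf.2 and uc002jue.2 and within it in uc002juc.2.

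Taken by transcript row, 0 of 44 rows passed between hsaFOXP2 and non-human FOXP2, with 5 of 65016 rows called in the whole table (0.00769%) and 4.28% at an unadjusted p under 0.05. The 5 rows became 114 without hsaFOXP2 replicate B and 16 without hsaFOXP2 replicate A, still with 0 of the 44. Rows of 1 gene share exons and reads, so they are not separate measurements. TNRC6C row uc002jue.2 had 4.78 and 4.95 BPKM in hsaFOXP2, against 3.00 to 3.64 BPKM in non-human FOXP2 and 3.57 and 3.47 BPKM in pcDNA3 (log2 fold change 0.54, SE 0.12, adjusted p = 0.627 by limma). Rows uc002jud.2 and uc002juf.2 of TNRC6C both had a log2 fold change of 0.41 (adjusted p = 0.878 by limma). The lowest TNRC6C row, uc002juc.2, had 2.12 and 2.47 BPKM in hsaFOXP2 and 1.63 to 2.55 BPKM in non-human FOXP2, and so overlapped. A row described as a septin 9/TNRC6C fusion had 1.92 and 2.31 BPKM in hsaFOXP2, 0.532 to 2.39 BPKM in non-human FOXP2, and 1.89 and 1.75 BPKM in pcDNA3.

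TNRC6C has 4 start sites in RefSeq, and the 250 bases before the first and second of them are shown because TNRC6C was the gene in which hsaFOXP2 stood apart. The letters CAAATT (in either direction, so also AATTTG), a motif known for FOXP2, and TGTTTAC (also GTAAACA), a forkhead motif, were searched, and matches are in capitals. CAAATT was found in 3 of the 16 start sites of 9 of the genes (1 of TNRC6C, 2 of DICER1), and in 9.61% of all 35116 promoters of this length. TGTTTAC was found in 0 of 16, and in 2.98% of all promoters. EIF2C2 was not searched. The window at the first TNRC6C start holds 46.0% G or C and 9 CpG, that at the second 70.4% and 24 CpG. Positions are chr17:77957307-77957556 and chr17:77958453-77958702, plus strand, GRCh38.p14.
TNRC6C first start: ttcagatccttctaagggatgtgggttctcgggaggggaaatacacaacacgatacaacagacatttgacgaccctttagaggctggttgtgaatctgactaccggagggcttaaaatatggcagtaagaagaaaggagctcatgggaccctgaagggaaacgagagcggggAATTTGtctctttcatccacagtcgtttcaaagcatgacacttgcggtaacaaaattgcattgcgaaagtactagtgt
TNRC6C second start: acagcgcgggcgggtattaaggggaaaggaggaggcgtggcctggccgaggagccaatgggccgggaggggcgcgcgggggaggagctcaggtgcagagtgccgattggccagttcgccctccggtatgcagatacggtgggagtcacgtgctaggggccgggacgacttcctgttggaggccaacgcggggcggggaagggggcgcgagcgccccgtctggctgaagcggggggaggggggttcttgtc

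Over the 10 libraries, the genes most like TNRC6C on the log2(BPKM + 0.1) scale were SPTBN1 (Pearson r = 0.975), SETBP1 (r = 0.949) and SLC26A10 (r = 0.916), among genes that averaged 1 BPKM or more. SPTBN1, a spectrin of the membrane skeleton, had 39.4 and 39.0 BPKM in hsaFOXP2, 29.3 to 33.5 BPKM in non-human FOXP2, and 31.9 and 33.7 BPKM in pcDNA3. SETBP1 had 2.01 and 2.03 BPKM in hsaFOXP2, 1.16 to 1.40 BPKM in non-human FOXP2, and 1.31 and 1.28 BPKM in pcDNA3, and had also been chosen by the study on these libraries. These r describe 10 libraries of 5 conditions and rest on the level of hsaFOXP2.

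Against empty pcDNA3, the mean of the 4 FOXP2 conditions differed for 0 of the 10 genes by limma (1 of 22238 genes called, 0.0045%), and 0 had an unadjusted p under 0.05 (3.57% of all genes). Log2 fold changes ran from -0.19 (DGCR8, SE 0.12, adjusted p = 1.00 by limma) to 0.11 (EIF2C3, SE 0.13). Against pcDNA3, 0 of the genes passed for any single cDNA, with 0.00899%, 0.00899%, 0.0045% and 0.00899% of all genes called for hsaFOXP2, ptrFOXP2, mmuFOXP2 and cjaFOXP2. At an unadjusted p under 0.05 there was 1 gene for hsaFOXP2 (TNRC6C, log2 fold change 0.38, SE 0.14) beside 4.77% of all genes, and 1 for cjaFOXP2 (DGCR8, -0.39, SE 0.15) beside 11%. For ptrFOXP2 and mmuFOXP2 there were 0, beside 3.38% and 3.11%. These contrasts share the 2 pcDNA3 libraries. An F test over the 5 conditions called 0 of the 10 genes (0.0135% of all genes), and 8.75% of all genes but 0 of these had an unadjusted p under 0.05 by limma.

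More of the genes stood apart in cjaFOXP2 than in any other condition. In cjaFOXP2, DROSHA, DGCR8, EIF2C2 and TNRC6A had both libraries below the other 8 and EIF2C4 had both above them, so 5 of 10 genes stood apart, against 1 for hsaFOXP2 (TNRC6C), 1 for ptrFOXP2 (EIF2C3) and 0 for mmuFOXP2 and pcDNA3. Of all genes that averaged 1 BPKM or more, 17% stood apart in cjaFOXP2 (11.3% below and 5.66% above), 4.22% in hsaFOXP2, 4.2% in ptrFOXP2, 1.69% in mmuFOXP2 and 1.03% in pcDNA3. EIF2C2 averaged 2.11 ± 0.156 BPKM in cjaFOXP2 (SD, n = 2) and 3.15 ± 0.573 BPKM in the other libraries (SD, n = 8), which is 1.496-fold lower in cjaFOXP2. DROSHA averaged 10.2 ± 1.014 and 13.03 ± 1.40 BPKM in the same groups, DGCR8 7.06 ± 0.137 and 8.74 ± 0.832 BPKM, and TNRC6A 8.56 ± 0.476 and 9.86 ± 0.939 BPKM. EIF2C4 averaged 2.44 ± 0.325 BPKM in cjaFOXP2 and 1.90 ± 0.214 BPKM in the others.

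A limma contrast of cjaFOXP2 with the mean of the other 4 conditions was added after these values had been seen. It called 0 of the 10 genes and 0 of all 22238 (0%), while 16.9% of all genes and 2 of the 10 had an unadjusted p under 0.05. These were EIF2C2 (log2 fold change -0.54, SE 0.19, adjusted p = 0.227 by limma) and DGCR8 (-0.30, SE 0.12, adjusted p = 0.258 by limma). DROSHA (-0.34, SE 0.15) and EIF2C4 (0.34, SE 0.16) had adjusted p = 0.299 and 0.324 by limma. The 2 genes became 4 without hsaFOXP2 replicate B or with the replicate letter as a block, 1 without ptrFOXP2 replicate B, mmuFOXP2 replicate B or pcDNA3 replicate A, and 0 without either cjaFOXP2 library. Without hsaFOXP2 replicate B, 1379 of all genes were called and still 0 of the 10. MCM7, a subunit of the replicative helicase and host of miR-106b, moved with this pattern: it had 42.2 and 45.5 BPKM in cjaFOXP2, against 53.9 BPKM in hsaFOXP2 replicate B and 76.9 to 96.2 BPKM in the other 7 libraries, and its part in the result was not tested.

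**Figure D4:**
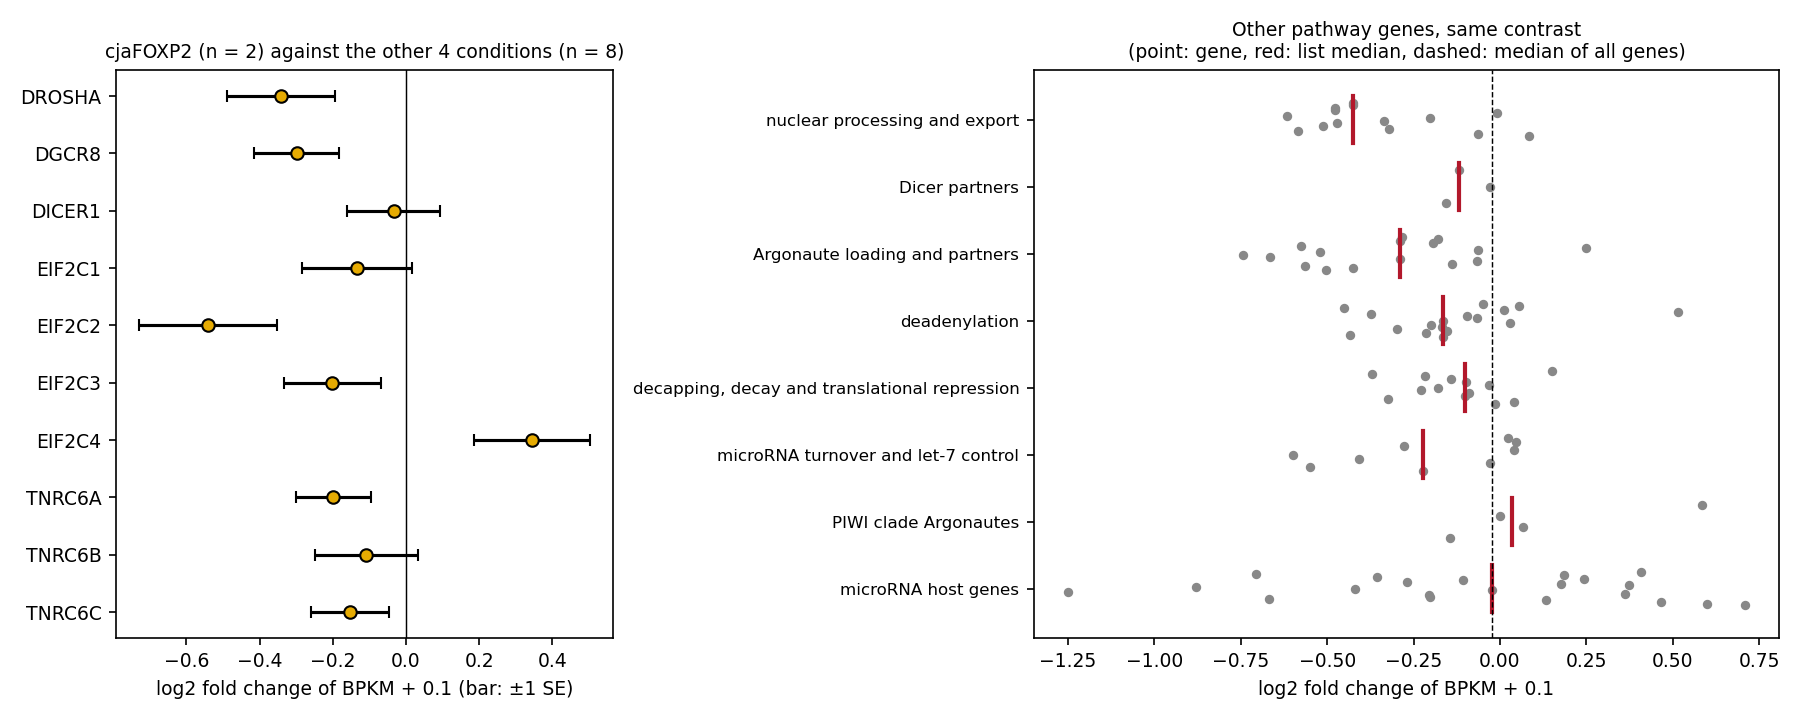
Log2 fold change of BPKM + 0.1 (x axes) of cjaFOXP2 against the other 4 conditions, on the left for the 10 genes with bars of 1 SE from limma, on the right for other pathway genes by list, with list medians in red and the median of all genes (-0.02) dashed. EIF2C2 lies lowest (-0.54) and EIF2C4 alone above 0 (0.34), and the nuclear processing and export list has a median of -0.42.

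The replicate letters stand for rounds of transfection, and within each condition B could be set against A. EIF2C2 was lower in replicate B than in replicate A in 5 of 5 conditions (2.64 against 3.57, 2.55 against 2.97, 3.21 against 3.97, 2.00 against 2.22 and 2.52 against 3.78 BPKM, in the order of the conditions above). EIF2C4 was higher in B in 5 of 5 (2.16 against 1.56, 2.13 against 1.82, 1.82 against 1.76, 2.67 against 2.21 and 2.11 against 1.84 BPKM). Of all genes, 2.89% were lower and 6.34% higher in B in 5 of 5 conditions. EIF2C2 averaged 2.58 ± 0.432 BPKM in B and 3.30 ± 0.713 BPKM in A (SD, n = 5 each), and EIF2C4 2.18 ± 0.306 BPKM in B and 1.84 ± 0.236 BPKM in A.

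Limma, with the condition in the model, called 0 of the 10 genes and 0 of all 22238 (0%) between B and A, and 11% of all genes had an unadjusted p under 0.05. The log2 difference of EIF2C2 was -0.33 (SE 0.10, adjusted p = 0.439 by limma) and that of EIF2C4 0.23 (SE 0.10, adjusted p = 0.450 by limma). The exact sign-flip permutation test within conditions gave p = 0.0625 for either gene, the smallest that 5 pairs allow. The count of the 10 genes with an unadjusted p under 0.05 was 1 in place of 2 when any hsaFOXP2, ptrFOXP2, mmuFOXP2 or pcDNA3 library was left out, and 3 without either cjaFOXP2 library. DROSHA, EIF2C1 and TNRC6B were lower in B in all conditions but cjaFOXP2. The nuclear RNA MALAT1 was higher in B in 5 of 5 conditions (39.1 against 14.6 BPKM in hsaFOXP2, 89.9 against 29.1 BPKM in ptrFOXP2, 40.4 against 14.6 BPKM in mmuFOXP2, 41.6 against 39.6 BPKM in cjaFOXP2 and 43.9 against 23.4 BPKM in pcDNA3). NEAT1, the other nuclear RNA looked at, was higher in B in 4 of 5, with 39.3 BPKM in B against 42.2 BPKM in A in cjaFOXP2. The part of both RNAs in these differences was not tested.

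**Figure D5:**
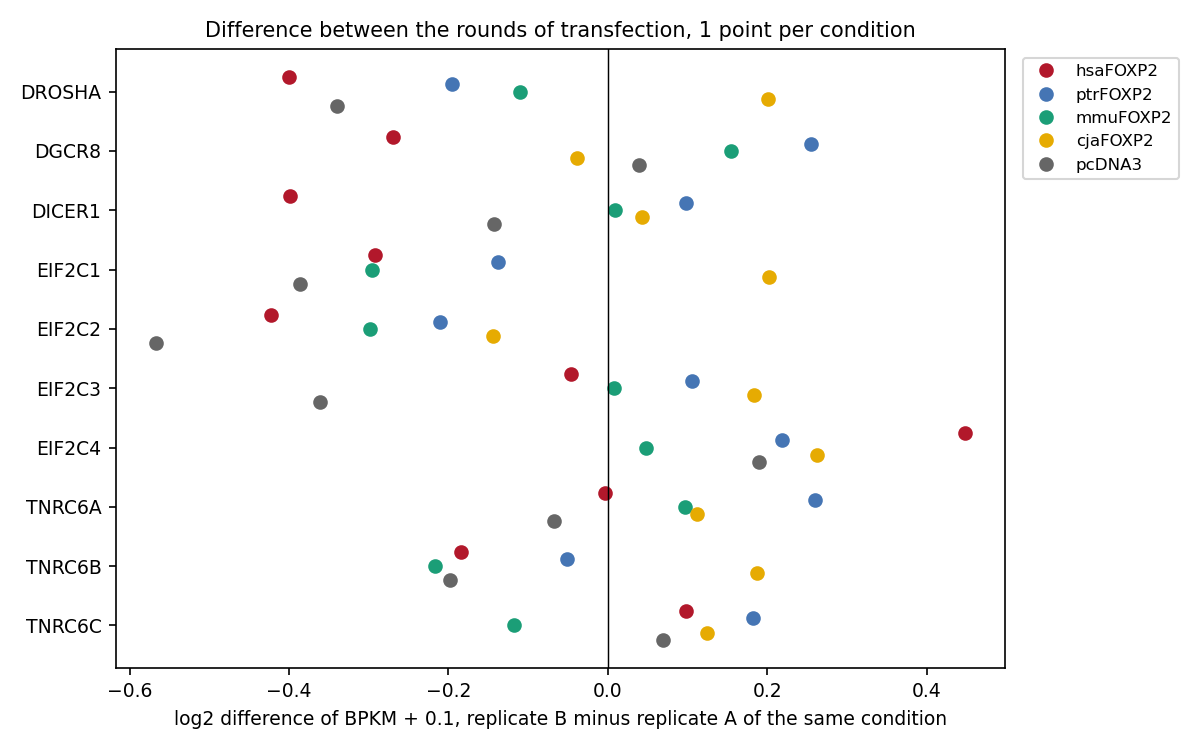
Log2 difference of BPKM + 0.1 between replicate B and replicate A of the same condition (x axis) for the 10 genes, 1 coloured point per condition and no error bars. All 5 points of EIF2C2 lie below 0 and all 5 of EIF2C4 above it.

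The members work with many other proteins, of which 100 genes in 8 lists were looked up and 99 found. For hsaFOXP2 against non-human FOXP2, 0 of the 97 tested passed by limma, and 4 (4.12%) had an unadjusted p under 0.05, 3 higher and 1 lower. Around the Microprocessor and nuclear export (14 genes), 7 had a log2 fold change above 0 and 7 below, with a median of 0.01. XPO5, which exports hairpin precursors, had 17.1 and 12.5 BPKM in hsaFOXP2 and 11.6 to 17.2 BPKM in non-human FOXP2 (log2 fold change 0.03, SE 0.20). SRRT (0.13, SE 0.21), a cap-associated factor of hairpin processing, the RNA-binding QKI (0.22, SE 0.17), the helicase DDX17 (-0.08, SE 0.11) and SMAD3 (-0.17, SE 0.11) had no unadjusted p under 0.05 either, and adjusted p was 1.00 for each of these by limma.

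The partners of DICER1 also overlapped between hsaFOXP2 and non-human FOXP2. TARBP2, its double-stranded RNA-binding partner, had 9.39 and 8.66 BPKM in hsaFOXP2 and 7.86 to 9.50 BPKM in non-human FOXP2, a log2 fold change of 0.00 (SE 0.11). PRKRA, a related partner, had 11.4 and 9.41 BPKM against 9.04 to 12.5 BPKM in the same groups (-0.05, SE 0.14), and the editing enzyme ADAR had 48.6 and 42.8 BPKM against 38.8 to 46.5 BPKM (0.12, SE 0.11). Among 16 genes of Argonaute loading and partners, the median was 0.04, with 0 of 16 at an unadjusted p under 0.05, among them the importin IPO8 (0.10, SE 0.13), FMR1 (0.07, SE 0.12), SND1 (-0.14, SE 0.15) and TSNAX (-0.24, SE 0.15).

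Downstream of TNRC6, the 17 deadenylation genes had a median of -0.02 and 0 at an unadjusted p under 0.05. PAN3, a subunit of a deadenylase that TNRC6 proteins bind, had 4.58 and 5.64 BPKM in hsaFOXP2 and 4.58 to 6.03 BPKM in non-human FOXP2. PABPC1, the poly(A)-binding protein, had 141 and 157 BPKM against 134 to 190.2 BPKM in the same groups. TOB2 (0.18, SE 0.16), RQCD1 (0.20, SE 0.21) and CNOT6L (-0.16, SE 0.13) also overlapped between these groups. Of 13 decapping and repression genes, DCP2, the decapping enzyme, was the 1 with an unadjusted p under 0.05. DCP2 had 3.14 and 2.83 BPKM in hsaFOXP2, 1.96 to 2.44 BPKM in non-human FOXP2, and 3.09 and 2.31 BPKM in pcDNA3 (log2 fold change 0.38, SE 0.13, adjusted p = 0.971 by limma). EDC4 (0.17, SE 0.12), DCP1A (-0.11, SE 0.11) and EIF4ENIF1 (-0.09, SE 0.10) had no unadjusted p under 0.05.

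Of 9 genes of microRNA turnover and let-7 control, 0 had an unadjusted p under 0.05 between hsaFOXP2 and non-human FOXP2. The uridylating enzymes ZCCHC11 and ZCCHC6 had log2 fold changes of 0.10 (SE 0.13) and -0.15 (SE 0.11), and the exonucleases ERI1 and XRN2 of 0.12 (SE 0.24) and -0.06 (SE 0.16). The 4 Argonautes of the PIWI clade, which act in the germ line, were close to 0, with means of 0.0133 BPKM for PIWIL1, 0.00849 BPKM for PIWIL2, 0.000988 BPKM for PIWIL3 and 0.207 BPKM for PIWIL4. PIWIL1 was the 1 with an unadjusted p under 0.05, at 0.0151 and 0.0197 BPKM in hsaFOXP2, 0 to 0.00663 BPKM in non-human FOXP2, and 0.0706 and 0.0116 BPKM in pcDNA3 (adjusted p = 0.927 by limma).

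Of 23 host transcripts of microRNAs, 21 were tested, and 2 had an unadjusted p under 0.05, 1 in each direction. The higher one, H19, a long non-coding RNA that carries miR-675, had 4.45 and 7.34 BPKM in hsaFOXP2, 1.83 and 2.12 BPKM in ptrFOXP2, 1.006 and 3.58 BPKM in mmuFOXP2, 1.77 and 1.29 BPKM in cjaFOXP2, and 14.1 and 5.61 BPKM in pcDNA3. Its log2 fold change was 1.62 against non-human FOXP2 (SE 0.41, adjusted p = 0.747 by limma) and -0.63 against pcDNA3 (SE 0.61, adjusted p = 1.00 by limma), and hsaFOXP2 lay above all 6 non-human FOXP2 libraries and overlapped with pcDNA3. The lower one was ARPP21, at 0.0535 and 0.223 BPKM in hsaFOXP2, 0.180 to 0.469 BPKM in non-human FOXP2, and 0.202 and 0.280 BPKM in pcDNA3 (log2 fold change -0.90, SE 0.35, adjusted p = 1.00 by limma), so these groups overlapped. The next 3 hosts had no unadjusted p under 0.05. MIRLET7BHG, host of let-7b, had 0.791 and 1.07 BPKM in hsaFOXP2 and 0.999 to 1.59 BPKM in non-human FOXP2 (-0.44, SE 0.22). MIR22HG had 6.97 and 6.99 BPKM in hsaFOXP2, below the 7.17 to 12.6 BPKM of non-human FOXP2 (-0.32, SE 0.21). Its pcDNA3 libraries had 7.37 and 8.81 BPKM. PANK3, whose miR-103a is known to target DICER1, had 10.1 and 6.48 BPKM in hsaFOXP2 and 5.54 to 9.22 BPKM in non-human FOXP2 (0.22, SE 0.22).

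In cjaFOXP2 against the other 4 conditions, 0 of the 97 other pathway genes passed by limma either, while 25 were lower and 5 higher at an unadjusted p under 0.05, beside 16.9% of all genes in both directions. Of the 14 genes of nuclear processing and export, 13 had a log2 fold change below 0 and 8 an unadjusted p under 0.05, with a median of -0.42 beside -0.02 for all genes. Among all 22238 genes, low ones included, 12107 were below 0 and 2090 were lower at an unadjusted p under 0.05. XPO5 had 11.56 and 11.56 BPKM in cjaFOXP2, against 12.5 to 17.2 BPKM in the other 8 libraries (-0.42, SE 0.13, limma adjusted p = 0.188). Of 16 genes of Argonaute loading and partners, 15 were below 0, with a median of -0.29. The next values, of genes named after they had been seen, show both directions.

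SMC4, a condensin subunit, had 16.8 and 19.8 BPKM in cjaFOXP2 and 24.02 to 34.4 BPKM in the others, and DLEU2 0.764 and 0.947 BPKM in cjaFOXP2 and 1.06 to 1.64 BPKM in the others. These carry miR-15b and miR-15a with miR-16, whose shared seed is shown above. C9orf3, host of miR-23b and miR-27b, had 3.07 and 3.59 BPKM in cjaFOXP2 and 1.91 to 3.01 BPKM in the others, and CTDSP2, host of miR-26a, 26.8 and 31.9 BPKM in cjaFOXP2 and 18.1 to 25.5 BPKM in the others. Adjusted p by limma was 0.136 for SMC4, 0.148 for DLEU2, 0.156 for C9orf3 and 0.219 for CTDSP2.

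Between replicates B and A, 0 of the 97 other pathway genes passed by limma. At an unadjusted p under 0.05 there were 5 higher and 4 lower in B, beside 11% of all genes in both directions. MIRLET7BHG (0.37, adjusted p = 0.444) and MIR22HG (0.28, adjusted p = 0.449) were among those higher in B, and PAN3 (0.23, adjusted p = 0.444) as well. Of the 16 genes of Argonaute loading and partners, 15 had a log2 difference below 0, with a median of -0.14 beside -0.01 for all genes.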

How the data were processed

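Poly(A) RNA of 10 SH-SY5Y libraries was sequenced by the authors, aligned to hg19 with STAR (version not given in the sources used here) and counted over exons of UCSC transcripts. They deposited BPKM, an RPKM computed on bases. The build hg19 is also in the submitters' processing notes. Read counts were not analysed here, so the absolute depth is unknown, no counting interval can be given, and relative depth comes from a rough comparison of the smallest values. Of 80922 rows, 2 without a symbol were left out. Coordinates are of GRCh38.p14 and belong to RefSeq sequences only. Of the 10 genes, 9 were matched to the RefSeq promoter table.

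Groups came from the sample labels. Values were averaged over transcript rows per symbol. Genes above 0 in at least 2 of the libraries fitted were tested with limma 3.58.1 (R 4.3.3; trend, robust, two-sided) on log2(BPKM + 0.1), which understates changes of low genes, with Benjamini-Hochberg adjustment over all genes and a threshold of 0.05. The script was tested on simulated data. The rest was done in Python 3.11.15 with pandas 2.3.3, numpy 2.4.6 and matplotlib 3.10.9. P-values measure the spread between transfections of 1 line, and, for non-human FOXP2, also between its cDNAs.

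The members, lists, tests and alternatives were chosen with earlier results of these data known. Named besides the members were, per list, up to 2 higher and 2 lower genes with the smallest p between hsaFOXP2 and non-human FOXP2 and a mean of at least 1 BPKM, TARBP2, PRKRA, XPO5, PAN3, PABPC1, the 3 genes most like TNRC6C, the leading transcript rows, and rows overlapping a member. PIWIL1 to PIWIL4, ARPP21, MCM7, SMC4, DLEU2, C9orf3 and CTDSP2 were named after their values were seen. By the labels, A and B stand for separate rounds of transfection, so letters pair libraries. Differences between B and A correlated between conditions at r = -0.19 to 0.37, over 0.1 in 5 of 10 pairs. Alternatives were other pseudocounts, filters and scaling, sums over transcripts, limma without trend and robust moderation, a replicate block, no cjaFOXP2 and each library left out.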

Additional observations from a re-analysis of the deposited data

Results flagged for a closer look

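In 39 named genes, the highest and the lowest of the 6 non-human FOXP2 libraries were compared with the nearest of the others by Dixon's ratio of the gap to the range. FMR1, an RNA-binding partner of Argonautes, had 4.77 BPKM in cjaFOXP2 replicate A and 5.58 to 6.04 BPKM in the other 5, a ratio of 0.637. TARBP2 had 7.86 BPKM in cjaFOXP2 replicate A and 8.94 to 9.50 BPKM in the other 5, a ratio of 0.661. Both exceed the critical value at the 95% level, which chance exceeds in about 1 in 20 groups, and 0 of the 10 members did.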

How the results depend on the processing

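Under every alternative, 0 of the 10 genes passed in any comparison, and between hsaFOXP2 and non-human FOXP2 1 had an unadjusted p under 0.05. The replicate block changed no member's call (TNRC6C, hsaFOXP2 against non-human FOXP2: adjusted p = 0.846 by limma). Fold changes near 0 turned. A pseudocount of 1 gave TNRC6A 0.000443 against pcDNA3. Median-ratio scaling gave DICER1 -0.0228 and DGCR8 -0.0158 for hsaFOXP2 against non-human FOXP2, EIF2C1 0.0159 and TNRC6A 0.0354 against pcDNA3, EIF2C3 0.00263 for B against A, and DICER1 0.00963 for cjaFOXP2 against the others. Leaving out the cjaFOXP2 condition gave DICER1 -0.00517, EIF2C2 -0.0314, EIF2C3 -0.0487, DROSHA -0.0585 and DGCR8 -0.0875 for hsaFOXP2.

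With 1 library left out at a time (a lone library of a condition being assumed to vary like the others), hsaFOXP2 against non-human FOXP2 ranged from -0.12 to 0.15 for DGCR8, -0.20 to 0.20 for DICER1, -0.14 to 0.26 for DROSHA, -0.0901 to 0.20 for EIF2C1, -0.0580 to 0.37 for EIF2C2, -0.0153 to 0.0761 for EIF2C3, -0.37 to 0.0756 for EIF2C4 and, without turning, 0.37 to 0.47 for TNRC6C (adjusted p = 0.549 to 1.00 by limma). Against pcDNA3 it was -0.11 to 0.0341 for DICER1, -0.23 to 0.11 for DROSHA, -0.21 to 0.17 for EIF2C1, -0.41 to 0.16 for EIF2C2, -0.0746 to 0.29 for EIF2C3, -0.0830 to 0.11 for EIF2C4, -0.0343 to 0.0340 for TNRC6A and -0.0461 to 0.15 for TNRC6B. B against A was -0.0288 to 0.10 for DGCR8, -0.12 to 0.00174 for DICER1 and -0.0739 to 0.0624 for EIF2C3, and cjaFOXP2 against the others -0.0836 to 0.0161 for DICER1.

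The count of all genes called moved more. Without the filter on low values it was 11 between hsaFOXP2 and non-human FOXP2 (2 before), 24 against pcDNA3 (1 before), 42 over the 5 conditions (3 before), 27 for cjaFOXP2 (0 before) and 1 for B against A (0 before). With a mean of at least 1 BPKM the first was 1, and without cjaFOXP2 0. Leaving out libraries, it ranged from 1 to 40 for hsaFOXP2 against non-human FOXP2, from 1 to 8 against pcDNA3, from 0 to 42 over the 5 conditions and from 0 to 1379 for cjaFOXP2, the highest without hsaFOXP2 replicate B in all but the comparison with pcDNA3. The cause was not tested. Depth is unknown, so how far it limits these genes cannot be given.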
